A study of Mus musculus with 72 samples.

Results

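The comparison asked whether the transcriptional response to dexamethasone (Dex) depended on Setd1a in RAW264.7 cells, a mouse macrophage line of BALB/c origin. It used 12 of the 72 libraries of the series, 3 in each of 4 groups. Both genotypes, wild type and a heterozygous Setd1a deletion (Setd1aDel/+, called Setd1aDel), received either LPS or Dex with LPS. LPS, a bacterial lipopolysaccharide, was given at 100 ng/ml for 6 h to all 4 groups. Dex, a synthetic glucocorticoid, was given at 1 uM for 16 h, and the LPS groups received 0.1% ethanol for the same 16 h. The difference was chosen by its design and not by any measured value: for each gene, Dex with LPS minus LPS in Setd1aDel, minus the same in wild type. A negative difference means that Setd1aDel cells ended lower, relative to their own LPS level, than wild-type cells did. Vehicle libraries of the same experiment (ethanol and D-PBS) entered no contrast but shared the estimate of the spread. They are given as the level without LPS. The labels do not say how many clones carry the deletion, or whether replicates were separate cultures, so p-values measure only the spread between these libraries.

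LPS makes macrophages secrete cytokines through NF-kB and makes them release interferon beta, which acts back on the cells through its receptor and the transcription factors that the receptor activates. That loop raises a large group of antiviral genes, the interferon-stimulated genes. Dex binds the glucocorticoid receptor Nr3c1, which raises genes near its own binding sites and lowers many inflammatory genes. Setd1a is a catalytic subunit of a COMPASS complex, an enzyme that methylates histone H3 at active promoters.

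Levels are in TPM, a share of all transcripts in a library, with the SD over 3 libraries; differences are on the log2(TPM + 1) scale with their standard error. Setd1a was 28.4, 22.9 and 28.9 TPM in the wild-type LPS libraries and 26.9, 27.7 and 22.6 TPM with Dex. In Setd1aDel it was 16.53, 16.61 and 15.03 TPM with LPS and 14.52, 15.04 and 20.2 TPM with Dex. All 6 Setd1aDel libraries were below all 6 wild-type ones, and the Dex response of Setd1a did not differ between genotypes (0.08 ± 0.21, adjusted p = 0.859). In this 16 h experiment the genotypes also stood apart in marker genes, with and without Dex. All 16 listed macrophage markers were measured, and their summed level was 7227 ± 220 TPM in wild type and 14660 ± 982 TPM in Setd1aDel with LPS, and 6420 ± 118 and 14050 ± 159 TPM with Dex and LPS. Lyz2, the macrophage lysozyme, made up most of that gap (2208 ± 186 TPM in wild type and 9207 ± 959 TPM in Setd1aDel with LPS). The 16 markers did not move together. With LPS 8 were higher and 6 lower in Setd1aDel than in wild type, with a median difference of 0.24. With Dex and LPS 8 were higher and 5 lower, with a median of 0.23. In vehicle the marker sums were 5379 ± 333 and 26360 ± 629 TPM. A gap of this size was not seen in a separate experiment with 6 h of Dex. There the sums with LPS were 10920 ± 91.7 TPM in wild type and 9959 ± 275 TPM in Setd1aDel. In vehicle of that experiment they were 12210 ± 229 and 14770 ± 507 TPM. Of 33 markers of other cell types only the neutrophil gene S100a8 was among the genes analysed. It was 5.18 ± 0.268 TPM in wild type and 101.4 ± 4.23 TPM in Setd1aDel with LPS, and 20.9 ± 1.11 and 355.4 ± 34.8 TPM with Dex, beside 2.87 and 2.37 TPM in vehicle. Its Dex response did not differ by the test (-0.03 ± 0.18, adjusted p = 0.948). In the 6 h experiment S100a8 was higher in wild type with LPS (77.7 ± 3.74 TPM) than in Setd1aDel (49.4 ± 4.04 TPM). In bulk libraries fewer cells of a type and less RNA per cell cannot be told apart, and the part of these genotype differences in the results that follow was not tested.

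Dex responses differed between the genotypes for 946 of 8964 genes tested, 10.6% of them. The difference was positive for 258 genes (2.88%) and negative for 688 (7.68%), with a median of -0.03 over all genes. At least 2-fold differences were found for 8 genes in the positive and 54 in the negative direction. The split depended on scaling: with median-of-ratios scaling 511 differences were positive and 475 negative, and 731 of the calls were shared with the unscaled fit. The responses themselves were broad. Dex raised 3159 genes (35.2%) and lowered 1107 (12.3%) in wild type, and raised 2673 (29.8%) and lowered 1333 (14.9%) in Setd1aDel. With scaling these became 1774 and 2087 in wild type and 2028 and 1939 in Setd1aDel. Scaling moved the median wild-type response of all genes from 0.09 to -0.01, and that of the difference from -0.03 to 0.01.

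**Figure D1:**
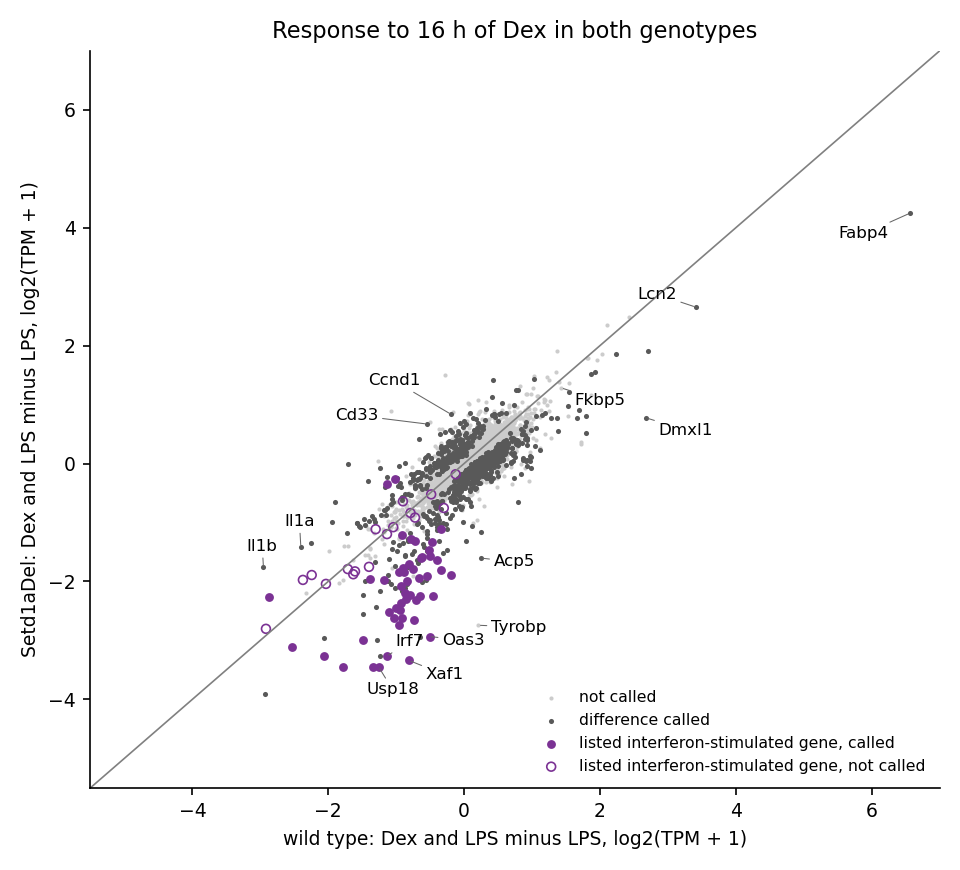
Each point is 1 of 8964 genes: the x axis is the Dex response under LPS in wild type and the y axis that in Setd1aDel, as differences of mean log2(TPM + 1), with the line of equal responses. Listed interferon-stimulated genes (purple) lie mostly below the line at negative responses in both genotypes, Fabp4 and Dmxl1 lie below it at positive responses, and Il1b and Il1a lie above it.

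The interferon-stimulated genes were the group with the most calls. Of 71 listed genes 66 were tested. Dex lowered 63 of them in wild type (median -0.91) and all 66 in Setd1aDel (median -1.90), beside 12.3% and 14.9% of all genes. The difference was negative for 46 genes and positive for 3, beside 7.68% and 2.88% of all genes. Its median was -0.96 beside -0.03 over all genes. With scaling the counts were 45 and 3 and the median -0.92, and with a pseudocount of 0.1 the counts were 50 and 1 and the median -1.20.

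The summed level of the 66 genes was 9227 ± 148 TPM in wild type with LPS and 4671 ± 309 TPM with Dex and LPS. In Setd1aDel it was 3571 ± 106 TPM with LPS and 1086 ± 24.3 TPM with Dex and LPS. The vehicle sums were 725.6 ± 80.9 TPM in wild type and 719.8 ± 12.9 TPM in Setd1aDel. So the genotypes started from like sums without LPS, and Setd1aDel reached less with LPS. With Dex the Setd1aDel sum fell towards its vehicle level but stayed above it. The starting level differed too: with LPS alone 65 of the 66 genes were lower in Setd1aDel (42.4% of all genes were), with a median of -1.43. For the 48 genes with at least 1 TPM in both vehicle groups, the level with LPS was a median of 10.7 times vehicle in wild type and 3.98 times in Setd1aDel. With Dex and LPS it was 6.73 times vehicle in wild type and 0.975 times in Setd1aDel, where 22 genes were above and 26 below their vehicle level.

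**Figure D2:**
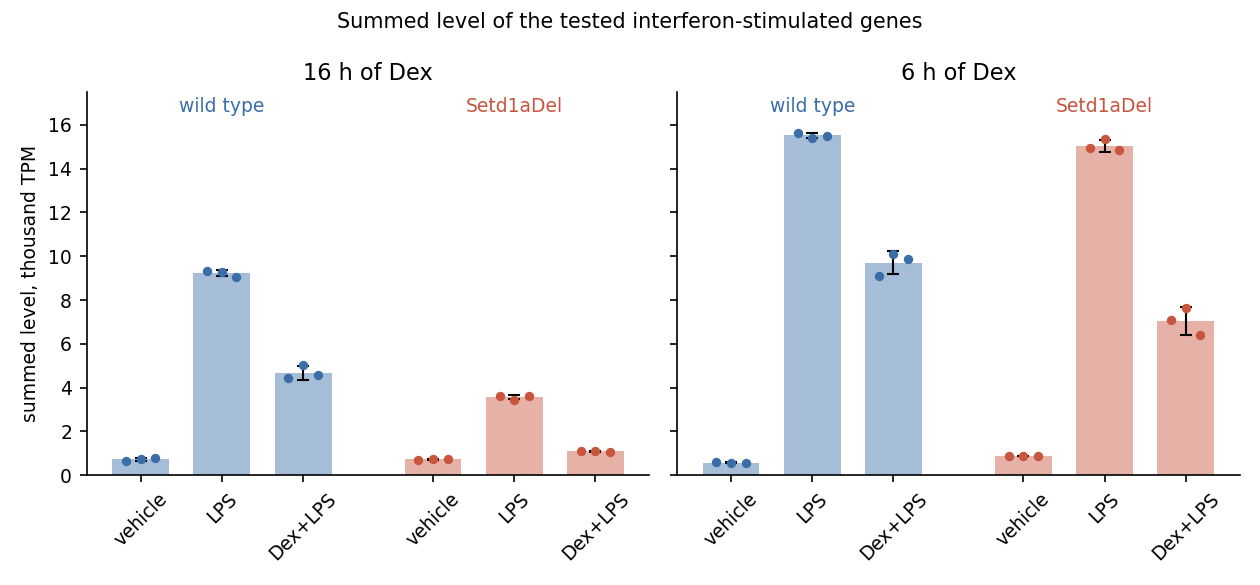
Bars are the mean summed level of the 66 interferon-stimulated genes in TPM (axis in units of 1000), error bars the SD over 3 libraries and points the libraries, for vehicle, LPS and Dex with LPS in both genotypes, at 16 h of Dex (left) and in the separate 6 h experiment (right). In the 16 h experiment the Setd1aDel libraries with Dex and LPS are at 1060 to 1108 TPM, above Setd1aDel vehicle at 705.4 to 730.4 TPM. In the 6 h experiment the libraries of that treatment and genotype are at 6392 to 7630 TPM.

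Many genes of this group are bound through the interferon-stimulated response element, and a form of it (GAAA, any 2 bases, GAAA) was searched on either strand of RefSeq promoters (GRCm38.p6, 250 bases before to 50 after each start). Of all 27025 genes with a RefSeq promoter 3.99% held these letters. Of the 66 tested interferon-stimulated genes 53 had a promoter there and 27 of these (50.9%) held them, as did 19 of 36 (52.8%) of those with a negative difference. Among the other genes with a negative difference the share was 4.41% (23 of 522), and among genes with a positive difference 8.29% (16 of 193). A match describes the sequence and does not show a bound site. The promoters of Oas3, Irgm1 and Ifit1 are printed because these are effector genes described next whose window holds the letters, which are in capitals:
Oas3 (chr5:120777610-120777909, minus strand, letters starting at -75 from the start site): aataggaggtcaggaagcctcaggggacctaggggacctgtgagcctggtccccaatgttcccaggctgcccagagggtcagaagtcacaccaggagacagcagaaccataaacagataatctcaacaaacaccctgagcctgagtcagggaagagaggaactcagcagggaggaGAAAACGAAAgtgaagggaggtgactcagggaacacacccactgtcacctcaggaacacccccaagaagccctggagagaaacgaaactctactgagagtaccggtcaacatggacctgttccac
Irgm1 (chr11:48871371-48871670, minus strand, overlapping matches starting at -30 and -24): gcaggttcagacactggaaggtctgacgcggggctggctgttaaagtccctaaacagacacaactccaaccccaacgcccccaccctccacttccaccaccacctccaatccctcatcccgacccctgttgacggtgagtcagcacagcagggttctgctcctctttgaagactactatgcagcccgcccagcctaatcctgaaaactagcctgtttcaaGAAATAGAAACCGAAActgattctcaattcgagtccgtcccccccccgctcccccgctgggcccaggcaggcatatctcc
Ifit1 (chr19:34640639-34640938, plus strand, matches starting at -104 and -85): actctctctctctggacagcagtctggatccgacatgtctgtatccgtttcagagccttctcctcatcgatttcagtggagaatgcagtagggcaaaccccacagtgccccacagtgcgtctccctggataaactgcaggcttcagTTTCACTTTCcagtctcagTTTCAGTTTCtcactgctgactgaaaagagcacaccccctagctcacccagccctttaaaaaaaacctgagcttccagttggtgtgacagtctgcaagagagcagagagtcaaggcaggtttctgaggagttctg

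Among the transcription factors of the loop, Irf7, which drives interferon gene expression, fell in both genotypes and further in Setd1aDel. It lies at chr7:141262706-141266481 on the minus strand (GENCODE, GRCm38). Irf7 was 259, 260 and 262 TPM in the wild-type LPS libraries and 114, 132 and 110 TPM with Dex. In Setd1aDel it was 76.9, 77.0 and 88.9 TPM with LPS and 7.91, 7.31 and 7.29 TPM with Dex. The 4 groups did not overlap, and the Setd1aDel libraries with Dex stood above the vehicle range of 3.599 to 4.446 TPM. Its Dex response was -1.13 in wild type and -3.27 in Setd1aDel, a difference of -2.13 ± 0.17 (adjusted p = 6.84e-07). Irf9 and Stat2, transcription factors of the interferon response chosen here after their values were seen, were likewise called: the difference was -1.69 for Irf9 and -0.95 for Stat2. Irf9 was 51.15 and 44.47 TPM in wild type, a response that was not called (adjusted p = 0.0727), and fell from 40.55 to 10.24 TPM in Setd1aDel.

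Of the antiviral effectors, Oas3, an oligoadenylate synthetase that senses double-stranded RNA, was 116, 112 and 120 TPM in wild type with LPS and 74.8, 87.8 and 81.2 TPM with Dex. The Setd1aDel libraries held 39.6 to 46.4 TPM with LPS and 4.51, 5.14 and 4.23 TPM with Dex. Those last 3 libraries were below all 3 Setd1aDel vehicle libraries (10.1 to 14.8 TPM), and the difference was -2.43 ± 0.19 (adjusted p = 4.88e-07). Usp18, a protease that removes Isg15 and restrains receptor signalling, was 402, 390 and 365 TPM in wild type with LPS and 147, 172 and 165 TPM with Dex. Setd1aDel libraries held 101, 92.6 and 98.3 TPM with LPS and 7.51 to 8.45 TPM with Dex, and the difference was -2.20 ± 0.17 (adjusted p = 3.84e-07). Here too the 4 groups did not overlap.

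Xaf1, an interferon-induced regulator of cell death, had the most negative of the called differences among genes with at least 5 TPM in a group. It went from 174, 174 and 183 TPM to 106, 103 and 93.7 TPM in wild type and from 59.3, 59.9 and 64.1 TPM to 5.53, 5.15 and 4.73 TPM in Setd1aDel, a difference of -2.53 ± 0.27 (adjusted p = 1.51e-05). The Setd1aDel libraries with Dex lay within the range of vehicle, 3.89 to 5.64 TPM. Irgm1, an immunity-related GTPase, went from 274.4 to 164.4 TPM in wild type and from 67.3 to 9.90 TPM in Setd1aDel (difference -1.91 ± 0.14). H2-T24, a non-classical class I gene outside the list, went from 76.5 to 48.7 TPM and from 23.7 to 2.22 TPM (difference -2.29 ± 0.16). The list members Ifi44 (-2.12) and Oas2 (-1.78), and Ifi44l outside the list (-2.03), were also called.

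Ifit1, which binds viral RNA, fell by 2.06 in wild type and by 3.27 in Setd1aDel. It went from 161, 158 and 156 TPM to 33.3, 42.3 and 36.3 TPM in wild type and from 66.6, 61.0 and 65.4 TPM to 6.23, 5.67 and 5.40 TPM in Setd1aDel, a difference of -1.21 ± 0.12. Cxcl10, an interferon-induced chemokine counted in the cytokine list and not here, fell from 526 to 126 TPM in wild type and from 49.0 to 5.45 TPM in Setd1aDel, where vehicle was 5.72 TPM (difference -0.89 ± 0.22, adjusted p = 0.0153). Ifit2 fell by 2.92 in wild type and by 2.80 in Setd1aDel, and its difference of 0.11 ± 0.36 was not called (adjusted p = 0.891). Slfn2, with the highest level among members not called, was 576 and 412 TPM in wild type and 460 and 320 TPM in Setd1aDel.

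The 3 members with a positive difference were Ifit3b, Ifit1bl1 and Ifi47, named after their values were seen. All were lower in Setd1aDel than in wild type with LPS. Ifit1bl1 was 2.10 and 0.530 TPM in wild type and 0.236 and 0.0320 TPM in Setd1aDel with LPS and with Dex. Ifi47, a GTPase, was 23.3 and 10.2 TPM in wild type, and 9.11 and 6.96 TPM in Setd1aDel, where vehicle was already 5.55 TPM. Ifit3b was 41.5 and 4.83 TPM in wild type and 5.72 and 0.391 TPM in Setd1aDel. On a log2(TPM + 1) scale a gene near 0 can fall little further, which applies to Ifit1bl1 and Ifit3b in Setd1aDel and not to Ifi47.

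**Figure D3:**
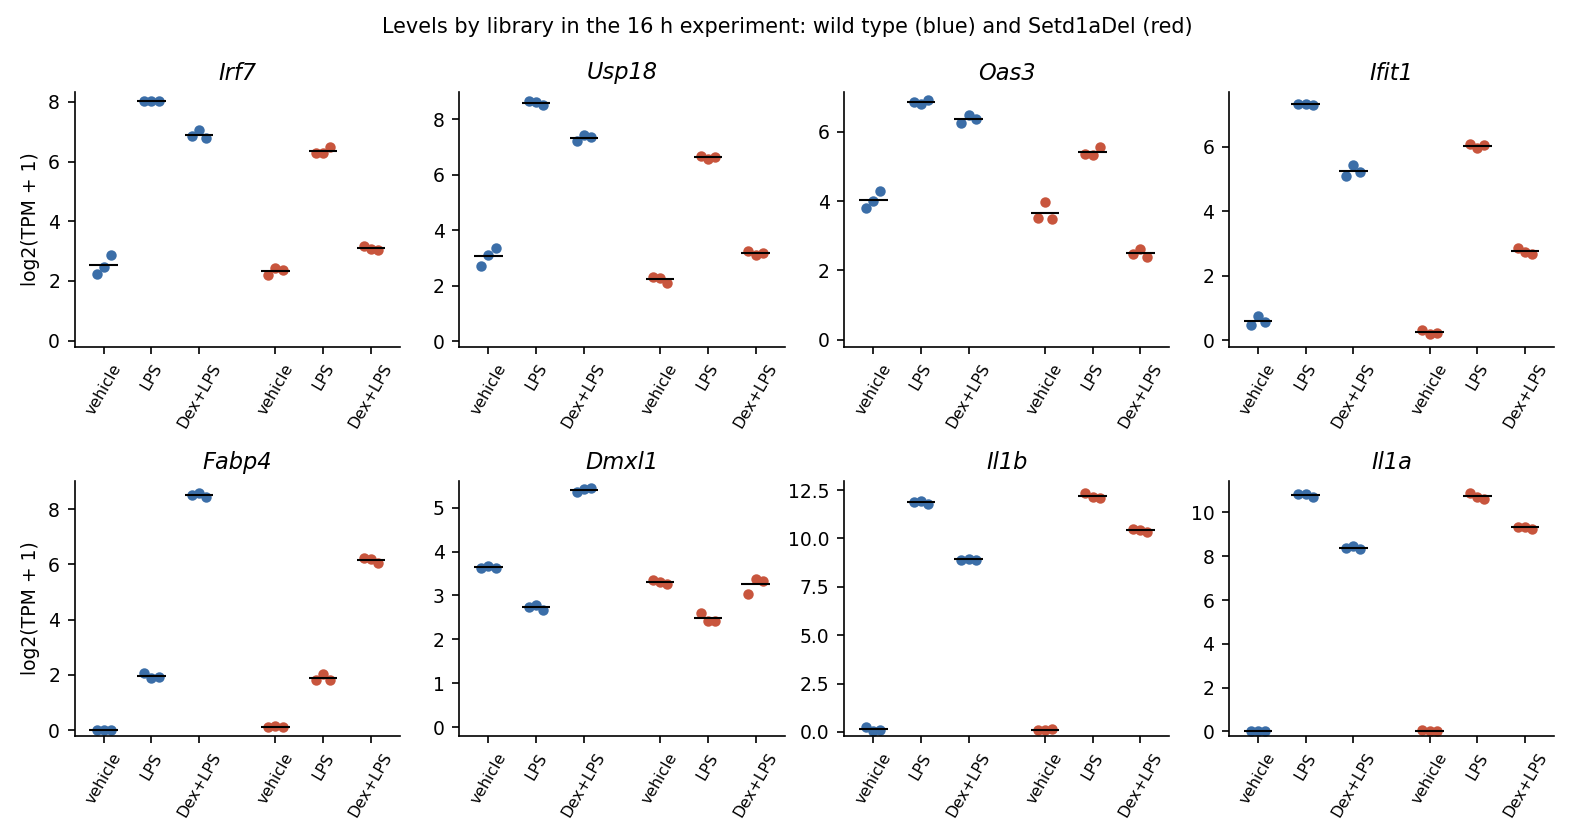
Points are the libraries of the 16 h experiment and bars the group means, on log2(TPM + 1), for vehicle, LPS and Dex with LPS in wild type (blue) and Setd1aDel (red). Irf7, Usp18, Oas3 and Ifit1 fall further with Dex in Setd1aDel, Fabp4 and Dmxl1 rise less, and Il1b and Il1a fall less.

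Among genes known to be raised by glucocorticoids, all called differences were negative, but only some of these genes rose with Dex here. Of 35 listed genes 24 were tested. None had a positive and 9 had a negative called difference, beside 2.88% and 7.68% of all genes. The median was -0.30 (scaled: 8 negative, median -0.26). Under LPS, Dex raised 12 of the 24 in wild type and 9 in Setd1aDel, beside 35.2% and 29.8% of all genes. It lowered 8 and 12, beside 12.3% and 14.9% of all genes. Of the 9 called genes, 5 (Fabp4, Lcn2, Mt2, Sgk1 and Klf9) rose in both genotypes and by less in Setd1aDel. The other 4, of which Klf4, Errfi1 and Anxa1 are named after their values were seen, did not rise: responses in wild type and Setd1aDel were -0.06 and -0.60 for Dusp1, -0.14 and -0.51 for Klf4, -0.12 and -0.65 for Errfi1, and -0.40 and -0.64 for Anxa1.

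Fabp4, a fatty acid-binding protein of macrophages and adipocytes at chr3:10204088-10208576 on the minus strand, had the strongest induction. It was 3.21, 2.69 and 2.80 TPM in wild type with LPS and 367, 380 and 349 TPM with Dex. Setd1aDel libraries had 2.53, 3.15 and 2.56 TPM with LPS and 73.1, 71.4 and 64.9 TPM with Dex. The LPS groups overlapped and the Dex groups did not, and the difference was -2.31 ± 0.09 (adjusted p = 1.47e-09).

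Lcn2, Mt2 and Sgk1 showed another pattern, with higher levels in Setd1aDel before and after Dex. Lcn2, which binds bacterial siderophores, went from 43.79, 40.03 and 39.3 TPM to 439, 438 and 455 TPM in wild type and from 233, 225 and 231 TPM to 1483, 1373 and 1498 TPM in Setd1aDel (difference -0.75 ± 0.07, adjusted p = 3.89e-06). Mt2, a metallothionein, went from 771.8 ± 57.8 to 2662 ± 74.6 TPM in wild type and from 4364 ± 327 to 7646 ± 553 TPM in Setd1aDel (difference -0.98 ± 0.10). Sgk1, a kinase, went from 2.13 ± 0.528 to 19.2 ± 1.91 TPM and from 6.87 ± 0.851 to 28.8 ± 4.73 TPM (difference -0.78 ± 0.19, adjusted p = 0.0171). The fold rise was smaller in Setd1aDel for all 3, while the level reached with Dex was higher.

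Tsc22d3 and Fkbp5, both classical direct targets of the receptor, gave no called difference, and Klf9, a transcription factor and also a direct target, gave a borderline one. Tsc22d3, which encodes the anti-inflammatory protein GILZ, rose from 2.04 to 7.79 TPM in wild type and from 1.80 to 6.201 TPM in Setd1aDel (difference -0.17 ± 0.19, adjusted p = 0.634). Fkbp5, a chaperone of the receptor, rose from 14.7 to 41.2 TPM and from 12.9 to 32.7 TPM (difference -0.15 ± 0.06, adjusted p = 0.121). A call for Fkbp5 was gained under 1 of 18 alternatives. Klf9 rose by 1.55 in wild type and by 1.21 in Setd1aDel (difference -0.34 ± 0.10, adjusted p = 0.0408). Its call was lost under 13 of 18 alternatives, with adjusted p up to 0.0767: with scaling, with the compared groups alone, and without any 1 of the 12 libraries except wild-type LPS replicate 1. The receptor Nr3c1 varied within groups, from 8.76 to 13.5 TPM in wild type and 13.8 to 22.6 TPM in Setd1aDel with LPS, and its difference of -0.44 ± 0.32 was not called (adjusted p = 0.436).

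Outside the list, Dmxl1, a rabconnectin-family protein, was 5.69, 5.84 and 5.40 TPM in wild type with LPS and 39.9, 41.9 and 42.8 TPM with Dex. In the deletion line it was 5.10, 4.31 and 4.34 TPM with LPS and 7.22, 9.43 and 9.10 TPM with Dex. The Dex groups were far apart while the LPS groups were close, and the difference was -1.90 ± 0.11 (adjusted p = 2.81e-08). Sdc1, a heparan sulfate proteoglycan, changed in opposite directions: it rose from 1.97 to 4.14 TPM in wild type and fell from 9.25 to 5.49 TPM in Setd1aDel (difference -1.46 ± 0.10). Acp5, the tartrate-resistant acid phosphatase of osteoclasts, was 22.2 and 26.6 TPM in wild type and 29.9 and 9.15 TPM in Setd1aDel (difference -1.85 ± 0.11).

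Cytokines and chemokines induced by LPS split in both directions. Of 33 listed genes 20 were tested. They gave 9 positive and 6 negative called differences (2.88% and 7.68% over all genes), with a median of 0.24. With scaling there were 9 and 4, and with a pseudocount of 0.1 there were 6 and 1. Ccl2 and Ccl22, below, lost their calls at that pseudocount with differences of like size. The spread was estimated over all libraries of the experiment, vehicle included, and why these calls were lost was not tested.

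Il1b, the inflammatory cytokine interleukin 1 beta, was 3829, 3909 and 3455 TPM in wild type with LPS and 479, 492 and 470 TPM with Dex. With the deletion it was 5178, 4546 and 4332 TPM with LPS and 1429, 1391 and 1309 TPM with Dex. All 3 Setd1aDel libraries with Dex were above all 3 wild-type ones, and the difference was 1.19 ± 0.09 (adjusted p = 5.85e-07). Il1a, which signals through the same receptor, was 1757 ± 99.0 and 331.2 ± 15.3 TPM in wild type and 1702 ± 168 and 636.3 ± 24.8 TPM in Setd1aDel (difference 0.99 ± 0.09, adjusted p = 1.43e-06). For Il1a the LPS libraries overlapped between genotypes and the Dex libraries did not. Nos2, the inducible nitric oxide synthase, fell from 87.2 to 34.0 TPM in wild type and from 38.7 to 19.7 TPM in Setd1aDel (difference 0.40 ± 0.09, adjusted p = 0.0141).

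Ccl2, the monocyte chemoattractant, was 36.9 ± 3.85 and 37.8 ± 2.12 TPM in wild type, and 45.3 ± 5.76 and 17.7 ± 2.59 TPM in Setd1aDel. Its difference was -1.34 ± 0.16 (adjusted p = 3.99e-05), and with a pseudocount of 0.1 it was -1.39 with an adjusted p of 0.103. Ccl22, a chemokine for regulatory and helper T cells, fell from 1374 to 178.5 TPM in wild type and from 750.9 to 49.2 TPM in Setd1aDel, a difference of -0.97 ± 0.14 with an adjusted p of 2.46e-04. With a pseudocount of 0.1 its difference was as large (-0.99) and its adjusted p 0.136. Tnf was 3675 and 3276 TPM in wild type and 3535 and 3517 TPM in Setd1aDel, and its difference of 0.16 ± 0.09 was not called (adjusted p = 0.302). Il1rn, which blocks the interleukin 1 receptor, fell by 2.32 in wild type and by 2.19 in Setd1aDel and gave no called difference (0.13 ± 0.18, adjusted p = 0.735). Ptgs2, the inducible cyclooxygenase, fell by 0.84 and by 0.71 (difference 0.13 ± 0.07, adjusted p = 0.26).

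Other genes with large positive differences fell into several patterns. Scimp, a transmembrane adaptor of toll-like receptors, fell from 42.1, 39.0 and 38.8 TPM to 9.58, 9.86 and 10.3 TPM in wild type and from 66.9, 56.2 and 54.6 TPM to 34.9, 37.9 and 38.9 TPM in Setd1aDel (difference 1.25 ± 0.24, adjusted p = 0.00335). It fell in both genotypes, further in wild type. Cd33, an inhibitory sialic acid-binding receptor, fell in wild type from 6.63 to 4.21 TPM and rose in Setd1aDel from 6.19 to 10.47 TPM (difference 1.22 ± 0.14). Myo1g, a myosin of blood cells, fell from 26.8 to 16.64 TPM and rose from 21.3 to 29.0 TPM (difference 1.08 ± 0.10). Ccnd1, which encodes cyclin D1, was 185, 177 and 178 TPM in wild type with LPS and 147, 156 and 169 TPM with Dex. In Setd1aDel it was 44.4, 45.1 and 44.9 TPM with LPS and 79.3, 80.0 and 82.7 TPM with Dex (difference 1.03 ± 0.07, adjusted p = 2.1e-07). For Cd33, Myo1g and Ccnd1 the genotypes changed in opposite directions, each response being called.

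For a further group, the Setd1aDel level was low already with LPS. Enc1, an actin-binding kelch protein, was 8.34 and 2.97 TPM in wild type and 2.13 and 1.98 TPM in Setd1aDel (difference 1.16 ± 0.08). Serpinb9, an inhibitor of granzyme B, was 14.4 and 4.75 TPM in wild type and 1.62 and 1.15 TPM in Setd1aDel (1.13 ± 0.11). Nr4a2, an orphan nuclear receptor, was 7.35 and 1.18 TPM and then 1.99 and 0.492 TPM (0.94 ± 0.10), and Lacc1, a purine enzyme of macrophages, was 12.1 and 5.75 TPM and then 5.66 and 5.45 TPM (0.91 ± 0.10). Tgtp2, a GTPase with the highest called value among genes with at least 5 TPM in a group (1.71 ± 0.12), was 6.54 and 1.32 TPM in wild type and below 0.01 TPM on average in both Setd1aDel groups, so no response could be seen there. Gbp2b, a guanylate-binding protein, was 11.8 and 1.68 TPM and then 2.34 and 0.315 TPM, and its difference of 0.91 ± 0.11 became 0.18 with an adjusted p of 0.751 at a pseudocount of 0.1.

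Lipid-handling genes gave 8 negative and no positive called difference among 18 tested, beside 7.68% and 2.88% over all genes (median -0.21, scaled 7 negative). Besides Fabp4, these included Olr1, the receptor for oxidised low-density lipoprotein (4.27 and 1.95 TPM in wild type, 14.6 and 2.81 TPM in Setd1aDel; difference -1.20 ± 0.12). Pltp, the phospholipid transfer protein, gave -0.56 ± 0.10. Abca1, a cholesterol exporter, gave -0.78 ± 0.07, but it was 1.27 and 0.338 TPM in wild type and 6.55 and 1.60 TPM in Setd1aDel, and at a pseudocount of 0.1 its difference of -0.33 was not called (adjusted p = 0.237). Msr1 and Fabp5, the most expressed members without a call, gave 0.06 each. At 6 h the same list had 3 positive and no negative calls, beside 3.25% and 2.04% over all genes, and a median of -0.002.

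Genes of DNA replication and mitosis rose with Dex in both genotypes, 47 of 48 in wild type (median 0.50) and 42 in Setd1aDel, beside 35.2% and 29.8% of all genes. The difference was negative for 14 and positive for 1, with a median of -0.16, beside 7.68% and 2.88% of all genes. With scaling 9 were negative. The replication licensing factors Cdt1 (21.7 to 32.3 TPM in wild type and 20.1 to 21.8 TPM in Setd1aDel; -0.44 ± 0.06) and Cdc6 (-0.43 ± 0.07) and the mitotic kinase Cdk1 (132 to 173 TPM and 135 to 138 TPM; -0.37 ± 0.05) had the most negative values. The 1 positive member was Ccnd1. Pcna, the sliding clamp, gave -0.23 ± 0.07 and was not called (adjusted p = 0.053). The list went the other way in the separate 6 h experiment. There 16 of the 48 had a positive and none a negative called difference, with a median of 0.18. Over all genes 3.25% were positive and 2.04% negative at 6 h. In the joint fit 22 of the 48 were more negative at 16 h than at 6 h, beside 6.84% of all genes.

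Among genes of the prostaglandin pathway, Ptges, a prostaglandin E synthase, rose from 25.7 to 51.8 TPM in wild type and was 79.4 and 75.4 TPM in Setd1aDel. The difference was -1.06 ± 0.21 (adjusted p = 0.00404). At a pseudocount of 0.1 it was as large (-1.09) with an adjusted p of 0.316. Alox5ap, which serves leukotriene synthesis, rose from 61.1 to 90.8 TPM and from 69.2 to 141 TPM (0.46 ± 0.06). That enzyme list had 3 positive and 3 negative calls among 14 tested, beside 2.88% and 7.68% over all genes. Glycolysis and hypoxia genes had 5 positive calls among 22 (2.88% over all genes), or 11 with scaling, and 2 negative ones (7.68% over all genes), with Vegfa at 0.48 ± 0.10 and Pfkfb3 at -0.45 ± 0.06. The C-type lectins Clec4e (-0.64 ± 0.08) and Clec4d (-0.59 ± 0.05) were among 4 negative calls of 14 scavenger and efferocytosis receptors (7.68% over all genes).

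Among regulators of the pathways concerned, shares are to be read against the 2.88% positive and 7.68% negative calls over all genes. None of 19 subunits of SET1 and MLL COMPASS complexes was called with the main settings (1 was with scaling), and their median was 0.02. Of 28 genes for the glucocorticoid receptor, its chaperones and coregulators 1 was positive (Trim24, 0.41 ± 0.09) and 1 negative, the latter not called with scaling. Of 15 genes for the induction and receptor of interferon beta 2 were positive, among them Irf3 (0.23 ± 0.05, adjusted p = 0.00502), and none was negative. Of 22 feedback inhibitors of inflammatory signalling 1 was positive and 3 were negative, with Dusp1, a MAP kinase phosphatase, at -0.54 ± 0.08. The positive one, Nfkbie (adjusted p = 0.041), lost its call under 13 of 18 alternatives, and the negative Irak3 (adjusted p = 0.0415) under 10. Cd14, the other positive gene of the interferon beta list (adjusted p = 0.0385), lost its call under 11. Dusp1, Dusp2 and Irf3 kept theirs under all 18. The 13 mitochondrially encoded messenger RNAs gave no call (median -0.03).

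**Figure D4:**
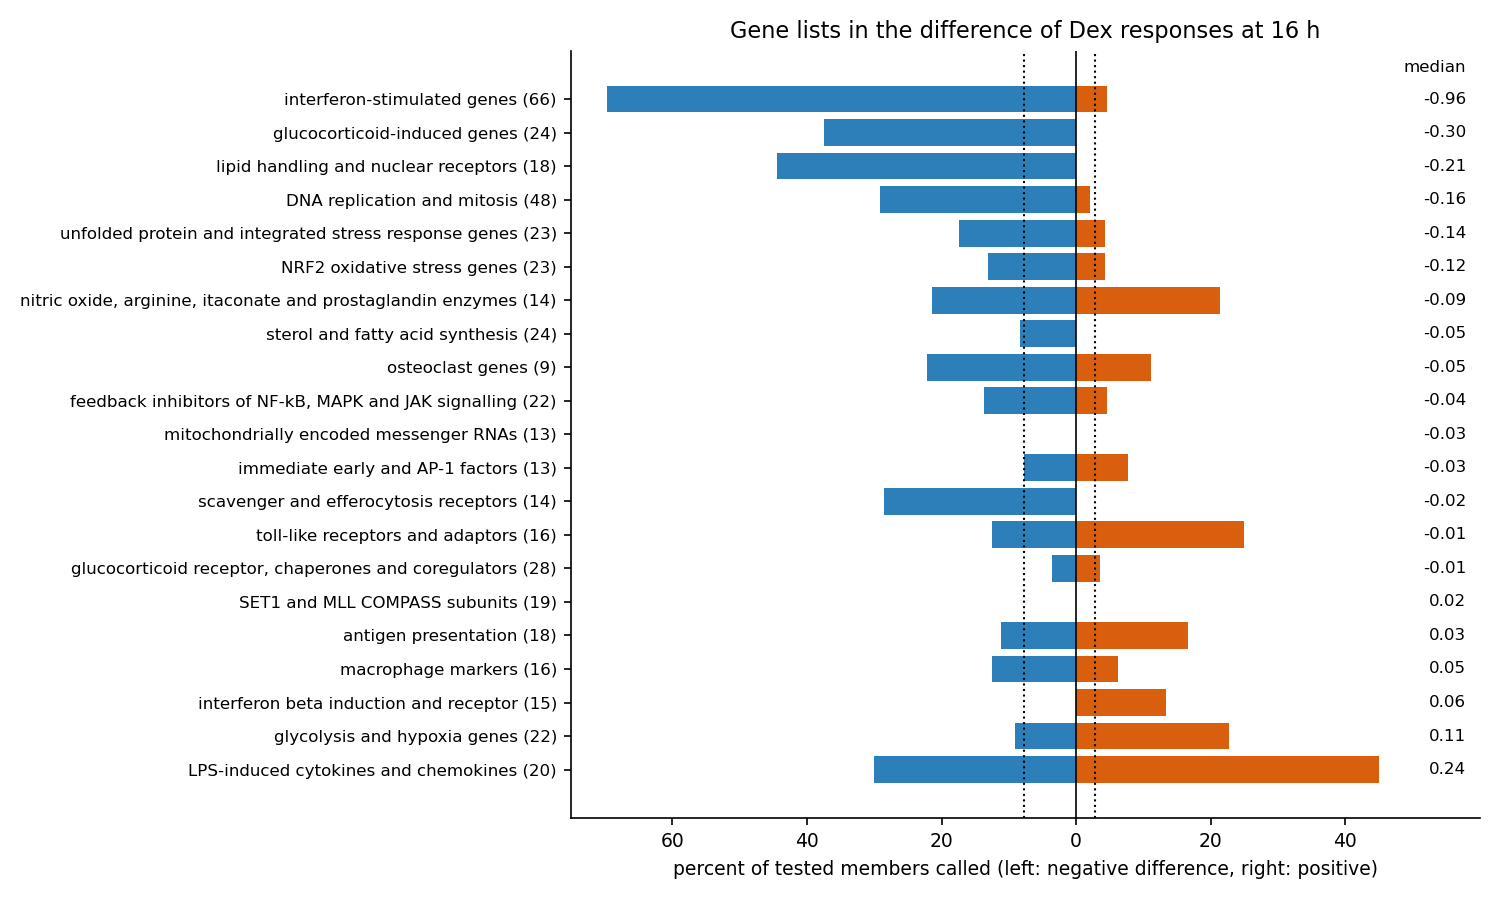
Bars give the percent of tested members (number in brackets) of each list with a called negative difference (left, blue) or positive difference (right, orange) of Dex responses at 16 h, dotted lines give the 7.68% and 2.88% over all genes, and the right column gives the median difference. Interferon-stimulated genes have the longest left bar (46 of 66) and cytokines and chemokines the longest right bar (9 of 20).

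Sets of Dex-responsive genes were also chosen in the separate 6 h experiment, which shares no library with the 16 h groups. Dex changed 25.3% of all genes there under LPS in wild type, and Dex alone changed 36.8%. The counts below are of the 16 h difference, which was positive for 2.88% and negative for 7.68% of all genes. Of 59 tested genes that Dex raised at least 2-fold under LPS in wild type at 6 h, none had a positive and 17 a negative called difference at 16 h, with a median of -0.24. With scaling there were 3 positive and 14 negative and the median was -0.19. Their median response at 16 h was 1.05 in wild type and 0.81 in Setd1aDel. Of 80 genes that Dex lowered at 6 h, 20 had a positive and 22 a negative difference, with a median of -0.02, and their median responses were -1.11 and -1.07 (scaled: 21 and 19, median 0.00). Of 89 genes raised by Dex alone 3 were positive and 30 negative (median -0.21), or 7 and 24 with scaling (median -0.16). Of 79 lowered by Dex alone 9 were positive and 11 negative (median 0.02), or 12 and 10 with scaling (median 0.06).

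The same difference was measured in the 6 h experiment, where Dex and LPS were both given for 6 h. There 475 of 8981 genes were called (5.29%), 292 with a positive (3.25%) and 183 with a negative difference (2.04%). Of the 946 genes called at 16 h, 73 were called in the same and 62 in the opposite direction at 6 h, and 51.3% had the same sign. For the 688 negative ones the share with the same sign was 49.1%, and 56.6% with both experiments scaled. For the 258 positive ones it was 57.0%, and 56.0% scaled. The genes called in both experiments in the same direction were 7.72% of the 16 h calls and 15.4% of the 6 h calls.

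Interferon-stimulated genes were negative in both experiments but by less at 6 h: 31 of 66 had a negative and none a positive difference (2.04% of all genes had a negative one), with a median of -0.44. The sum of their levels at 6 h was 15520 ± 120 TPM in wild type with LPS and 9698 ± 519 TPM with Dex, and 15040 ± 261 and 7044 ± 622 TPM in Setd1aDel. The LPS sums of the genotypes lay close together at 6 h and apart at 16 h. In the joint fit of both experiments, 8.88% of all genes differed between 16 h and 6 h. There 32 of the 66 were more negative and 7 more positive at 16 h than at 6 h, beside 6.84% and 2.04% of all genes. Irf7 was 563.8 ± 6.60 and 347.1 ± 11.9 TPM in wild type and 477.6 ± 14.1 and 214.9 ± 15.8 TPM in Setd1aDel at 6 h.

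Among genes called in the same direction in both experiments, Il1b gave 1.19 at 16 h and 0.65 at 6 h, Enc1 1.16 and 0.51, and Nr4a2 0.94 and 0.63. In the negative direction Sdc1 gave -1.46 and -0.98, Parp14, an ADP-ribosyltransferase, gave -1.32 and -0.81, and Ifit1 gave -1.21 and -1.07. Il1b at 6 h was 894.6 ± 20.8 and 78.3 ± 2.63 TPM in wild type and 737.0 ± 22.0 and 101.6 ± 4.94 TPM in Setd1aDel. Fabp4, by contrast, was 3.905 and 142.6 TPM in wild type and 1.85 and 81.9 TPM in Setd1aDel at 6 h, with a difference of -0.02 there, and the 16 h minus 6 h comparison gave -2.3 (adjusted p = 4.44e-07). Dmxl1 was 41.7 TPM in wild type and 36.1 TPM in Setd1aDel with Dex at 6 h, against 41.5 and 8.58 TPM at 16 h. Experiment and time with Dex cannot be told apart here.

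**Figure D5:**
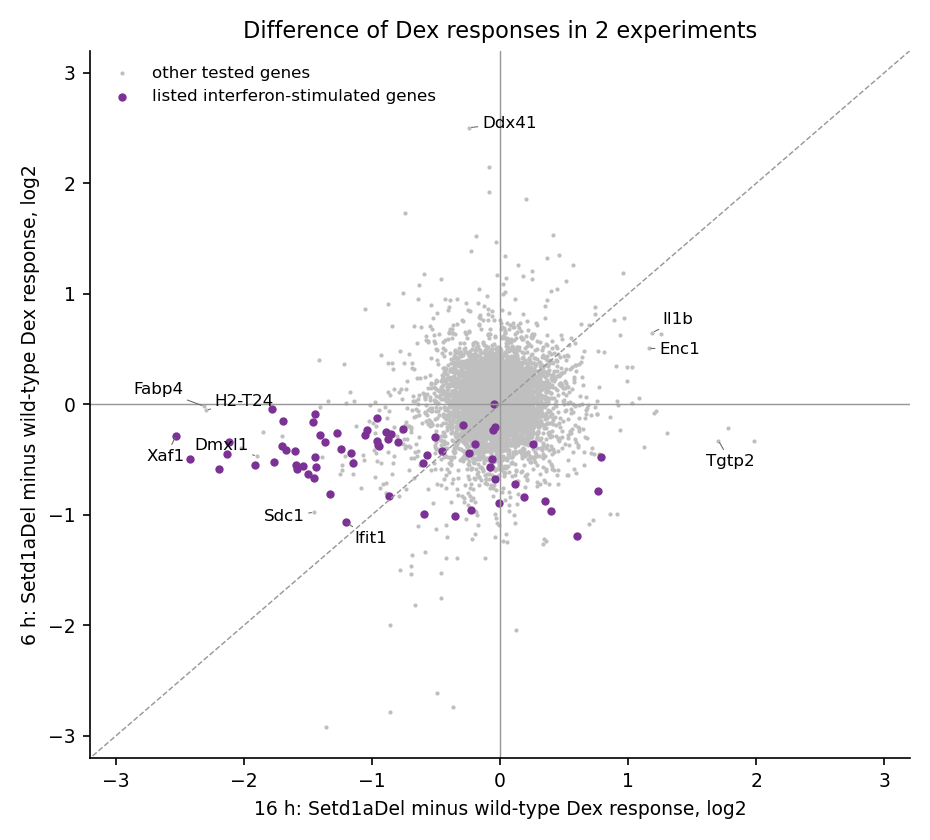
Each point is a gene: the x axis is the difference of Dex responses (Setd1aDel minus wild type, log2) at 16 h and the y axis that at 6 h, with the line of equal values dashed and 3 genes beyond the axes not shown. Interferon-stimulated genes (purple) lie further from 0 on the 16 h axis, Fabp4 and H2-T24 are near 0 on the 6 h axis, and Il1b and Enc1 are positive on both.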

How the data were processed

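Of the 72 mRNA libraries, the 42 of the RAW264.7 Dex experiments were used: 18 at 16 h and 24 at 6 h, 3 per group, grouped by the labels' genotype and treatment. The authors' deposited table holds TPM per gene, with 8983 genes listed, which sum to 905439 to 912839 TPM in the 12 libraries compared. Reads per library are unknown, so no counting interval is given. Salmon 0.10.2 and DESeq2 with R 3.6.0, on GRCm38.p6 (mm10), are named in the submitters' processing notes. Kits were stranded TruSeq with 500 ng RNA, per the labels' protocols. The deposited table also holds the authors' log2 fold changes and p-values, used for a check only: their difference had the same sign for 937 of the 946 genes called here. Genes absent from the table, such as Ifnb1, were not analysed here.

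The filter kept genes reaching 1 TPM in 3 or more libraries, and these were fitted as log2(TPM + 1) with limma 3.58.1 in R 4.3.3 (1 mean per group, eBayes with trend, all libraries of an experiment), and a gene was called where its two-sided p, adjusted by Benjamini-Hochberg over all genes, was under 0.05. A joint fit of 42 libraries compared 16 h with 6 h. The members, the 22 gene lists and the tests were chosen with earlier results of these data known. Lists are described by counts and medians, and were not tested. The text names the 12 highest and 12 lowest differences with at least 5 TPM in a group, up to 4 called and 2 not called members per list, genes called at both times, the largest 16 h minus 6 h values and a fixed set including Setd1a and Fabp4. Alternatives were median-of-ratios scaling, a replicate block, a pseudocount of 0.1, fits without the filter, with the compared groups alone or with robust eBayes, and leaving out each library. Scaling the sets chosen at 6 h, and the 16 h calls in the 6 h libraries, was added after seeing the data. The fit was tested on simulated data. Replicates correlated at 0.993 or more, and no libraries held identical values. Identifiers of 8967 genes matched GENCODE vM21, and 27 symbols were repaired from that annotation. Promoters were matched by symbol to RefSeq. Figures used matplotlib 3.10.9.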

Additional observations from a re-analysis of the deposited data

Results flagged for a closer look

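The difference of Dex responses itself differed between the 16 h and 6 h experiments for 796 of 8964 genes in the joint fit (8.88%), which flags a comparison of effects in separate sets of libraries. Of the genes with at least 5 TPM, the largest values of 16 h minus 6 h were -8.2 for Tyrobp (adjusted p = 0.016), -2.74 for Ddx41 (adjusted p = 0.0183), -2.3 for Fabp4 (adjusted p = 4.44e-07), -2.25 for Xaf1 (adjusted p = 8.03e-05), -2.24 for H2-T24 (adjusted p = 2.82e-07) and 2.04 for Tgtp2 (adjusted p = 2.13e-09). As stated above, no Dex response of Tgtp2 could be seen in Setd1aDel at 16 h. Its 16 h difference therefore rests on the wild-type response alone.

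Tyrobp, an adaptor of activating receptors, varied widely within groups. It was 35.3, 0 and 49.6 TPM in wild type with Dex and LPS at 6 h, 0.0393, 56.2 and 23.4 TPM in Setd1aDel with LPS at 6 h, and 52.1, 1.73 and 57.2 TPM in Setd1aDel with Dex and LPS at 16 h. Ddx41, a helicase, was 1.26, 14.2 and 14.7 TPM in wild type with Dex and LPS at 6 h and 28.7 to 38.8 TPM on average in the other 3 groups there. With only the compared groups in the fit neither was called (adjusted p = 0.0795 for Tyrobp and 0.059 for Ddx41).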

How the results depend on the processing

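With the main settings 946 differences were called at 16 h; the alternatives gave 897 (pseudocount of 0.1), 949 (no filter), 986 (scaling), 789 (the compared groups alone) and 945 (robust eBayes). Scaling moved the split more than the total: 511 positive at 16 h, 329 positive and 394 negative for 16 h minus 6 h, 1774 raised and 2087 lowered for Dex in wild type, 2391 higher for genotype under LPS, and 2722 higher and 2702 lower for genotype under Dex and LPS. In the 6 h experiment the compared groups alone gave 305 calls, 159 of them positive. Sets chosen at 6 h together held 93 genes called at 16 h at the 2-fold minimum and 250 at 1.5-fold. The sets themselves were larger at 1.5-fold, with 212, 255, 246 and 396 tested genes against 59, 80, 89 and 79. Over all genes tested at 16 h 10.6% were called.

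Leaving out 1 library gave 698 to 1029 calls at 16 h, 194 to 314 positive and 502 to 715 negative. At 6 h it gave 278 to 522, with 170 to 316 positive and 108 to 206 negative, the lowest without wild-type Dex and LPS replicate 2. For 16 h minus 6 h it gave 650 to 872.

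Same-numbered libraries correlated over a range like that of others: 18 same-numbered pairs at -0.271 to 0.278, beside 36 different-numbered pairs at -0.335 to 0.271. Of 12 libraries 4 correlated best with their own number. The labels do not say whether a number marks a shared batch. The fit with a replicate block gave 800 calls, 784 of them shared. Of 93 called genes among the 144 named or nameable ones, 22 lost their call under at least 1 of 18 alternatives, 14 of these without at least 1 library, and none changed sign while called. The cause was not tested. Depth is unknown for TPM, and low levels are compressed by the pseudocount.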
